A study of Homo sapiens with 10 samples.

Results

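The Hedgehog pathway was followed through 9 genes: the ligand genes SHH and IHH, the ligand-binding inhibitor HHIP, the receptor PTCH1, the signal transducer SMO, the inhibitor SUFU and the transcription factors GLI1, GLI2 and GLI3. The genes were selected by name, and every probe set with exactly 1 gene symbol that was one of these names was taken, which gave 25 probe sets among 54613 probe sets that were no controls (9 of 19775 genes). Total RNA of human gastric cancer cells in culture had been labelled with biotin and read on 10 arrays of 1 channel each. The groups were 4 arrays of side population cells, 4 of non-side population cells (each with replicate letters a, b, c and d) and 2 of unsorted cells (letters a and b). Side population cells are those that pump out a Hoechst dye and are sorted by flow cytometry away from the dye-bright non-side population, and the labels name no treatment or genetic change in any group. AGS and MKN 45 are established gastric carcinoma lines. Both stand in the origin label of every array. The source label gives AGS for 8 arrays and is silent on the line for the other two, which are side population a and b. The labels do not say whether replicates came from separate cultures, so p-values measure only the spread between these arrays, which may be technical. All 7 epithelial marker genes checked, among them EPCAM and KRT18, were above 2 times the array median on every array.

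In Hedgehog signalling a secreted ligand binds the receptor PTCH1 and relieves its block on SMO, a seven-pass membrane protein. Active SMO frees the GLI factors from SUFU, and the GLI factors then switch on target genes that include GLI1, PTCH1 and HHIP, so the level of these targets is commonly read as pathway output. In the stomach, SHH is made by the gland epithelium, and in many carcinomas the ligand is thought to act on neighbouring stromal cells.

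SMO was the only one of the 9 genes with a called difference (adjusted p under 0.05 in limma over all probe sets), and that difference lay between the sorted arrays and the unsorted arrays, not between side and non-side population. On the scale used, log2 of intensity plus 6.1, it was 6.12-fold higher in side population and 5.22-fold higher in non-side population than in unsorted cells (log2 fold change 2.61 ± 0.44 and 2.38 ± 0.44, SE, n = 4 and 2). The unsorted values were dim, so the size depended on the treatment of low values, with log2 fold changes from 1.28 to 2.94 and from 1.05 to 2.71 over the alternatives run. No Hedgehog gene was called between side and non-side population cells, and neither was any of all 54613 probe sets. Against unsorted cells, 1.05% of all probe sets were called for the side population and 2.18% for the non-side population. Most probe sets of the pathway lay near or below the middle of the array, and HHIP lay below it throughout.

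The level of a probe set was read against the median intensity of its array, which ranged from 58.7 to 85.4. A value was called above where it exceeded 2 times that median, below where it was under 0.5 times it, and near in between. Of the 250 values of the 25 probe sets, 34 were above, 107 near and 109 below. That is 13.6%, 42.8% and 43.6%, against 37.8%, 26.8% and 35.4% of the values of all probe sets. Over their array median on all 10 arrays were 2 Hedgehog probe sets, 1 of PTCH1 and 1 of GLI3, against 37.2% of all probe sets. By mean log2 value, 10 Hedgehog probe sets ranked in the upper part of the array, at or over the median probe set, and these belonged to 8 of the 9 genes, all but HHIP. Because several genes have probe sets of very different brightness, each probe set was kept apart, and the brightest of a gene is used below unless another is named.

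**Figure D1:**
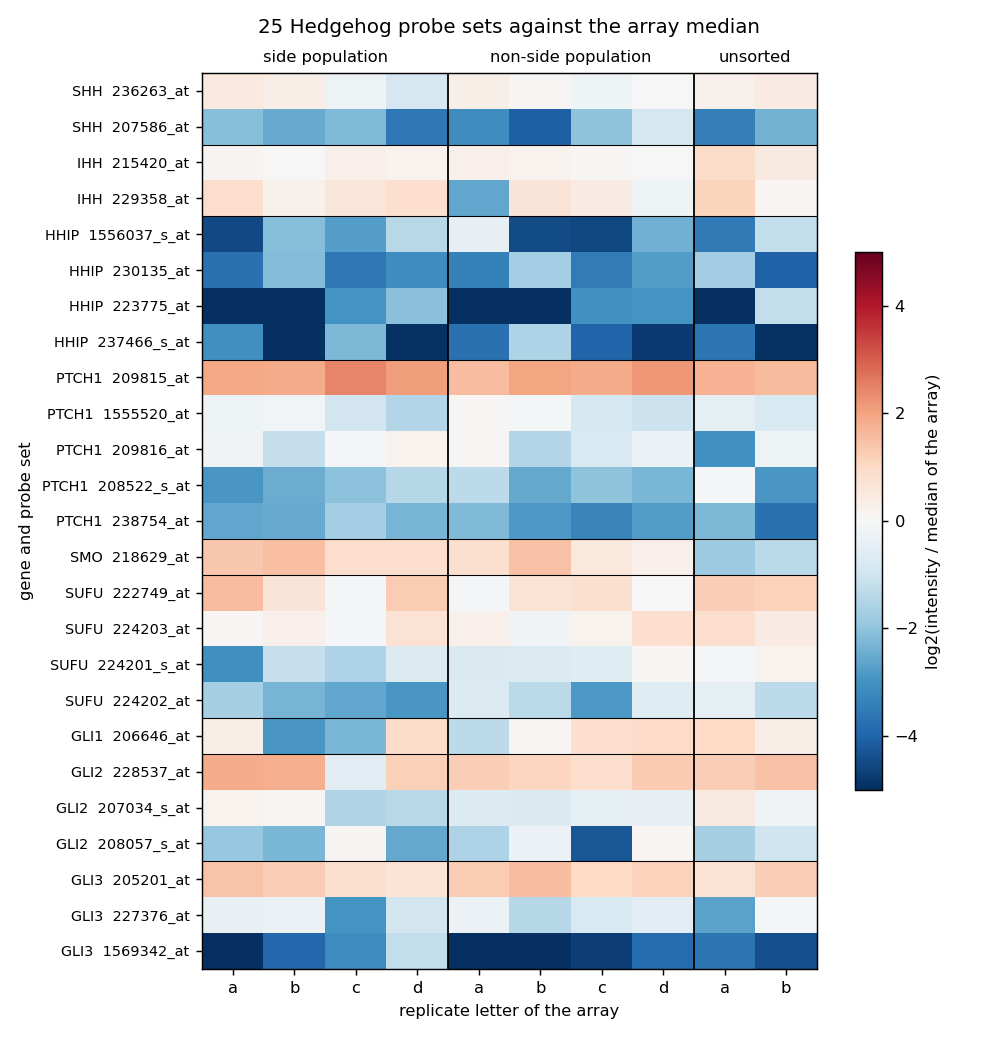
Log2 ratio of intensity to the median of the same array (colour) for the 25 Hedgehog probe sets (rows) on 10 arrays (columns, by group and replicate letter). PTCH1 209815_at and GLI3 205201_at are red on every array, the HHIP rows are blue, and SMO is red on the 8 sorted arrays and blue on the 2 unsorted arrays; ratios beyond 5 log2 units are shown at the end of the scale.

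The ligand genes read close to the array median. SHH (probe set 236263_at), which encodes Sonic hedgehog, read 97.9, 95.3, 53.2 and 38.2 in side population replicates a to d, 91, 77.5, 73.5 and 70.7 in non-side population replicates a to d, and 71.5 and 78.1 in the unsorted pair. All 10 values were near the median, and the side population arrays spread on both sides of the other groups. The log2 fold change of SHH between side and non-side population was -0.21 ± 0.37 (SE, n = 4 and 4; limma adjusted p = 0.993). The second SHH probe set, 207586_at, was dimmer, at 4.4 to 39.4, with 9 values below and 1 near. IHH (215420_at), the gene of Indian hedgehog, read 78, 73.6, 75.6 and 76.8 in side population, 88.9, 83, 89.5 and 69.9 in the non-side population and 116.3 and 79.4 in unsorted cells. The side population arrays of IHH lay within a few units of each other, under both unsorted arrays and inside the range of the non-side population. IHH had a log2 fold change of -0.32 ± 0.39 between side population and unsorted cells (n = 4 and 2; adjusted p = 0.773). On the other IHH probe set, 229358_at, non-side population replicate a read 12.4 while the other 9 arrays read 62.4 to 132.6.

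HHIP encodes a membrane protein that binds the ligands and is itself a target of the pathway. Its 4 probe sets read between 0.9 and 57.1, and 39 of their 40 values were below the array median by the rule above. The remaining value, 57.1 in non-side population replicate a, was near it. The groups overlapped on each of the 4 probe sets, and fitted differences at such intensities rest on values close to the constant of 6.1 that was added before taking logarithms.

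PTCH1, the ligand receptor and a target of GLI factors, was represented by 5 probe sets with unlike readings. The brightest, 209815_at, read 271.1, 275.8, 337.6 and 290.4 in side population replicates a to d, 216, 288.1, 305 and 324 in non-side population replicates a to d, and 201.3 and 177.2 in unsorted cells. All 10 values were above the array median by the rule, and each sorted array was higher than both unsorted arrays. PTCH1 had a log2 fold change of 0.62 ± 0.29 between side population and unsorted cells (SE, n = 4 and 2; adjusted p = 0.347) and of 0.55 ± 0.29 between non-side population and unsorted cells (adjusted p = 0.370), so neither passed the test. For side over non-side population it was 0.06 ± 0.24 (adjusted p = 0.997), with a 95% interval of -0.44 to 0.57. The other 4 PTCH1 probe sets read between 4.4 and 79. Of these, 209816_at, 1555520_at and 238754_at had positive values in both comparisons with unsorted cells and 208522_s_at had negative ones. Over the 10 arrays the brightest PTCH1 probe set correlated with the other 4 at -0.22 to 0.42.

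PTCH1 has several transcription starts, and RefSeq (GRCh38.p14) gave 5 promoter windows for it, each from 250 bases before to 50 after a start. The GLI binding motif GACCACCCA was searched for on both strands of all 12 windows found for 7 of the 9 genes, GLI1 and GLI3 having no entry in the table. It matched 1 window, of PTCH1, while 0.236% of the 35116 windows in the table held it. The 250 bases before that start are shown since they carry the match in the promoter of the receptor gene, and those of SMO since it is the gene with the called difference. Both are written 5′ to 3′ along the gene, and capitals mark the motif, found in PTCH1 as its reverse complement TGGGTGGTC beginning 172 bases before the start. The PTCH1 stretch is chr9:95509267-95509516 on the minus strand and the SMO stretch chr7:129188383-129188632 on the plus strand. The SMO window, with 72% G and C and 29 CpG pairs against medians of 58.7% and 14, held no match, which says only that these letters are not in it.
PTCH1: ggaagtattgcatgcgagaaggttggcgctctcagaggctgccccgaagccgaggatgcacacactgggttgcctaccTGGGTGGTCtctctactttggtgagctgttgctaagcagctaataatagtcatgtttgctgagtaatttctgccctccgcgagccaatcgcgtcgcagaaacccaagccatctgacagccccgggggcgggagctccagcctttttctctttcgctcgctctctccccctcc
SMO: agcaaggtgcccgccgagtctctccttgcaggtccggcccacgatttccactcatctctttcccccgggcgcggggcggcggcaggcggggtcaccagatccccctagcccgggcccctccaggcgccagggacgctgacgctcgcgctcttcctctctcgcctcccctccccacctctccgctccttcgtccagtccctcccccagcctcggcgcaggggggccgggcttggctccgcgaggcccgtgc

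SMO was measured by 1 probe set, 218629_at. It read 179.3, 211.3, 116.8 and 125 in side population replicates a to d, 132, 204.1, 122.3 and 86.3 in non-side population replicates a to d, and 17.2 and 23.1 in the unsorted pair a and b. Relative to the array median these were 1.83 to 2.81 times in side population, 1.2 to 2.75 times in non-side population and 0.282 and 0.394 times in unsorted cells. Both unsorted values were thus below the median by the rule, and the lowest sorted value was higher than either of them. The group means were 158 ± 45 in side population, 136 ± 49.4 in non-side population (SD, n = 4 each) and 20.1 ± 4.17 in unsorted cells (n = 2). The order was side population, non-side population, unsorted, and the first 2 did not differ beyond their spread.

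SMO was higher in side population than in unsorted cells by a log2 fold change of 2.61 ± 0.44 (SE, n = 4 and 2; limma adjusted p = 0.0160). It was higher in non-side population than in unsorted cells by 2.38 ± 0.44 (adjusted p = 0.0143). It was the 1 Hedgehog probe set of 25 called in either comparison, where 1.05% of all 54613 probe sets were called for the side population and 2.18% for the non-side population. At an unadjusted p under 0.05 there were 2 of 25 for the side population (SMO and SUFU 224201_s_at; 14.5% of all) and 1 for the non-side population (SMO; 16.3% of all). Both comparisons use the same 2 unsorted arrays. Without unsorted replicate a the log2 fold changes of SMO were 2.45 and 2.22 and no longer called (adjusted p = 0.248 and 0.201), and without replicate b 2.78 and 2.55 (adjusted p = 0.110 and 0.0895); the lone unsorted array was then assumed to vary like the other groups. With every value under its array median raised to that median, they were 1.28 (adjusted p = 0.0910, not called) and 1.05 (adjusted p = 0.0385), where a probe set under the median on every array would show 0.19 and 0.32 from the medians alone. That setting called 15 of the 25 Hedgehog probe sets for the non-side population, along with 30265 of all 54613. With arrays labelled AGS only, the side population value was 2.28 ± 0.51 (n = 2 and 2; adjusted p = 0.126), and the non-side population value 2.38 ± 0.44 (n = 4 and 2; adjusted p = 0.0218). A lower intensity in bulk RNA does not tell fewer expressing cells from less RNA per cell. Unsorted cells should hold both side and non-side population cells. Yet both unsorted values, 17.2 and 23.1, lay under every value of both fractions, 86.3 to 211.3. The sorted and unsorted arrays also differ in the sorting itself, with any staining and handling. The part of these steps in the SMO difference was not tested.

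Between side and non-side population, SMO had a log2 fold change of 0.23 ± 0.36 (SE, n = 4 and 4; limma adjusted p = 0.990). The 95% interval of the difference, -0.54 to 0.99, holds both a higher and a lower level in side population cells. The values overlapped, with the highest side population array at 211.3 and the highest non-side population array at 204.1. The sign turned with AGS-labelled arrays only, at -0.10 ± 0.44 (n = 2 and 4).

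Each of 3 genes known to be high in MKN 45 had sorted values that did not overlap with the unsorted ones, and 1 of them was called. Of all probe sets, 27.9% for the side population and 27.3% for the non-side population did not overlap with unsorted cells in either direction. The shares called were 1.05% and 2.18%. CEACAM5, which encodes the carcinoembryonic antigen, averaged 2274 in side population, 2664 in non-side population and 408.3 in unsorted cells, and was called higher in both sorted groups, by a log2 fold change of 2.44 ± 0.39 (SE, n = 4 and 2; adjusted p = 0.0142) and 2.60 ± 0.39 (adjusted p = 0.00573). MET, a receptor kinase gene amplified in MKN 45, averaged 3104, 2461 and 1244, was higher on every sorted array than on both unsorted arrays and was not called (adjusted p = 0.0949 and 0.200). CEACAM6 was lower on every sorted array, averaging 9120, 9112 and 12454, and was not called (adjusted p = 0.347 and 0.306). The summed level of these 3 genes was 12478 to 16004 in side population, 11398 to 16138 in non-side population and 13817 to 14396 in unsorted cells, of which CEACAM6 made up most. The part of such genes, or of the line, in the SMO difference was not tested. Of 7 fibroblast markers 5 never exceeded 2 times the array median. The summed level of the 7 overlapped between groups, at 1287 to 2316 in side population, 1307 to 1838 in non-side population and 1558 to 2286 in unsorted cells. COL1A1 made up most of this sum. It read 1017.8 to 2010.4 and exceeded 2 times the array median on all 10 arrays, while THY1 did so on 1 (29.1 to 140.3 over all). None of the 4 blood and 3 endothelial markers measured was called between any groups by limma, which does not speak of their level. HBB exceeded 2 times the array median on 9 arrays (85.1 to 232.7 over all) and PECAM1 on 3 (52.8 to 200.8). The other blood and endothelial markers never did. Of the dye pumps, ABCG2 averaged 124 in side and 97.1 in non-side population cells, over 16.7 to 239.2 on all arrays (log2 fold change 0.29 ± 0.68, SE, n = 4 and 4; adjusted p = 0.995), and ABCB1 averaged 27.7 and 26.8 (0.03 ± 0.51).

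**Figure D2:**
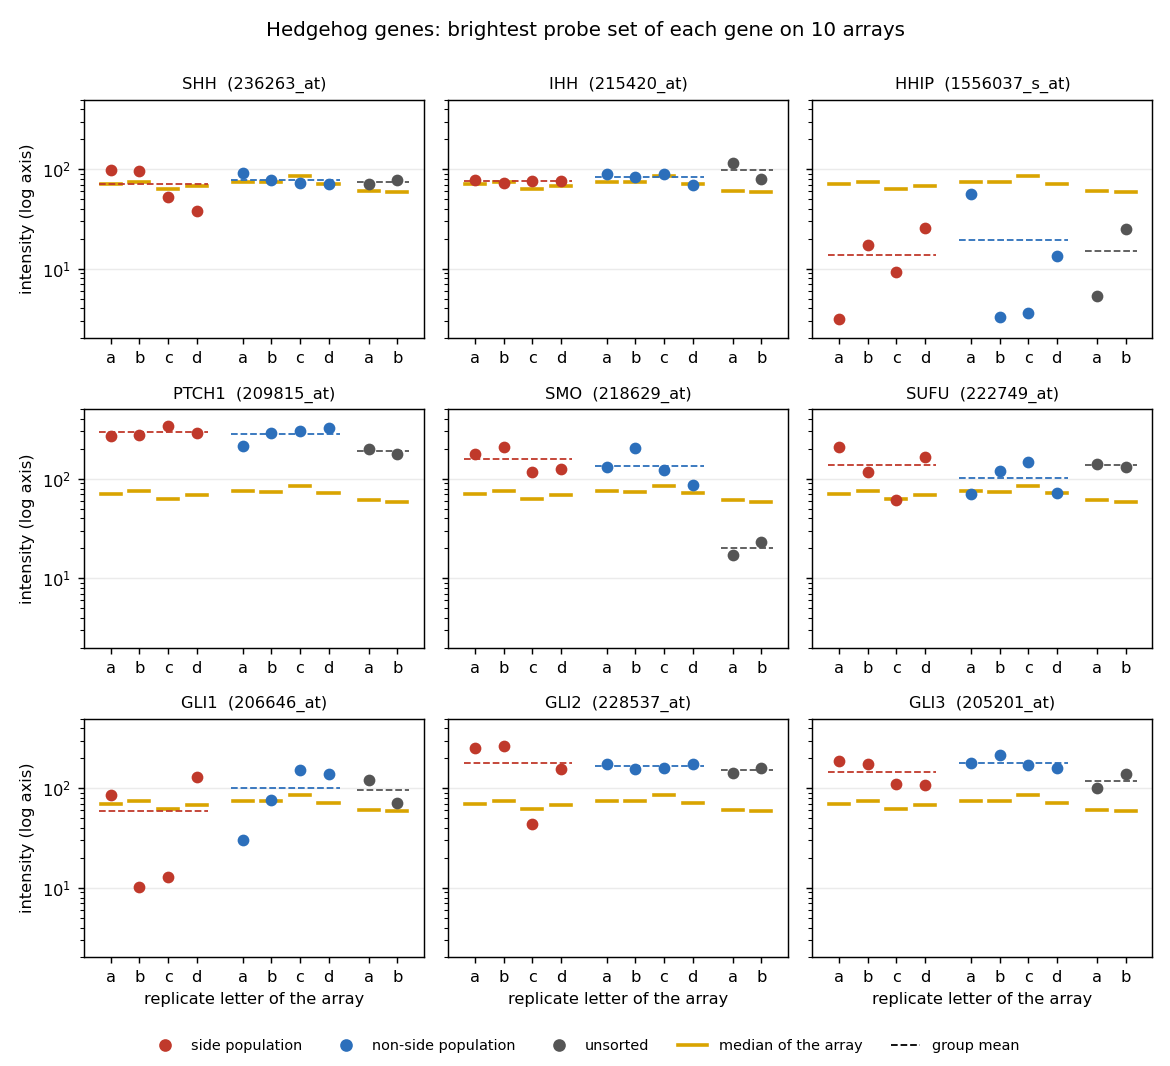
Intensity (log axis) of the brightest probe set of each Hedgehog gene on each array, by group and replicate letter; dashed lines are group means and yellow bars the median of each array. The unsorted SMO values of 17.2 and 23.1 lie apart from the 8 sorted values of 86.3 to 211.3, while for the other 8 genes any gap between groups is small beside that of SMO.

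SUFU holds GLI factors in the cytoplasm. Its brightest probe set, 222749_at, read 207.6, 116.1, 61.1 and 165.7 in side population replicates a to d, 69.9, 120.4, 147.2 and 72.2 in non-side population and 141.2 and 131.9 in unsorted cells. These values ranged from near to above the array median, the groups overlapped, and the log2 fold change between side and non-side population was 0.35 ± 0.40 (SE, n = 4 and 4; limma adjusted p = 0.983). A dimmer SUFU probe set, 224201_s_at, pointed the other way. It read 8.4, 33.8, 21.8 and 42.3 in side population, 44.9, 46.1, 56.3 and 74.5 in the non-side population and 57.4 and 66 in unsorted cells. All side population values lay under all non-side population values. It was the 1 Hedgehog probe set of 25 whose side and non-side population values did not overlap, against 2.67% of all probe sets in either direction. Its log2 fold change was -1.02 ± 0.44, which did not pass (adjusted p = 0.926), and with values raised to the array median it was -0.15, where the medians alone give -0.14. The probe set 224202_at had -0.91 ± 0.46 (adjusted p = 0.951) and 224203_at, whose values were all near the median, -0.17 ± 0.35 (adjusted p = 0.995). The brightest SUFU probe set correlated with the other 3 at -0.27 to 0.08 over the 10 arrays, while those 3 correlated with each other at 0.31 to 0.56.

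GLI1 is both an activator and the most direct target of the pathway. Its single probe set, 206646_at, read 85.3, 10.1, 13 and 129.3 in side population replicates a to d, 30, 76.9, 152.7 and 140.6 in non-side population and 122.7 and 71.7 in unsorted cells. Replicates b and c of the side population and a of the non-side population were below the array median by the rule, 6 arrays were near it, and unsorted replicate a was just over 2 times it. Both low and high values occurred in each sorted group, so the ranges overlapped. GLI1 had a log2 fold change of -1.05 ± 0.69 between side and non-side population (SE, n = 4 and 4; limma adjusted p = 0.964), with a 95% interval of -2.54 to 0.44.

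GLI2, the main activator that acts before GLI1 is induced, had 3 probe sets. The brightest, 228537_at, read 252.6, 266.1, 43.9 and 157.5 in side population replicates a to d, 177.7, 158.3, 159 and 175.7 in non-side population and 142.3 and 160.8 in unsorted cells. Side population replicates a and b were the highest of the 10 arrays and replicate c the lowest, so that the side population surrounded the other groups. Its log2 fold change between side and non-side population was -0.16 ± 0.45 (SE, n = 4 and 4; adjusted p = 0.995). The GLI2 probe set 207034_s_at, at 21.9 to 82.3, correlated with it at 0.72 over the 10 arrays, and 208057_s_at, at 4.4 to 77.3, at -0.43.

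GLI3, which mostly represses when the pathway is off, was over the array median on every array with 205201_at. It read 190.1, 175.6, 109.5 and 108.9 in side population replicates a to d, 180.2, 215, 172.4 and 159.8 in non-side population and 100.9 and 138.2 in unsorted cells. Each non-side population array was higher than both unsorted arrays, and side population replicates a and b were higher than c and d. GLI3 had a log2 fold change of 0.59 ± 0.36 between non-side population and unsorted cells (SE, n = 4 and 2; limma adjusted p = 0.463) and of -0.34 ± 0.30 between side and non-side population (adjusted p = 0.971). The probe set 227376_at, at 7.9 to 60.7, correlated with it at 0.66, and 1569342_at, below the median on all 10 arrays at 2 to 28.8, at -0.63.

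Between side and non-side population, 0 of the 25 probe sets were called by limma, as were 0% of all probe sets. At an unadjusted p under 0.05 there was 1 Hedgehog probe set, the SUFU probe set 224201_s_at, and 5.26% of all probe sets. The log2 fold change was positive for 8 and negative for 17 of the 25, with a median of -0.20, while 44.5% of all probe sets were positive with a median of -0.05. Against unsorted cells, 5 of the 25 had side population values that did not overlap with the unsorted ones (27.9% of all probe sets). They were higher for SMO and PTCH1 209815_at and lower for SUFU 224201_s_at, SUFU 224202_at and IHH 215420_at. For the non-side population there were 3, all higher, of SMO, PTCH1 209815_at and GLI3 205201_at (27.3% of all). Both counts are smaller shares of the 25 than these background shares.

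**Figure D3:**
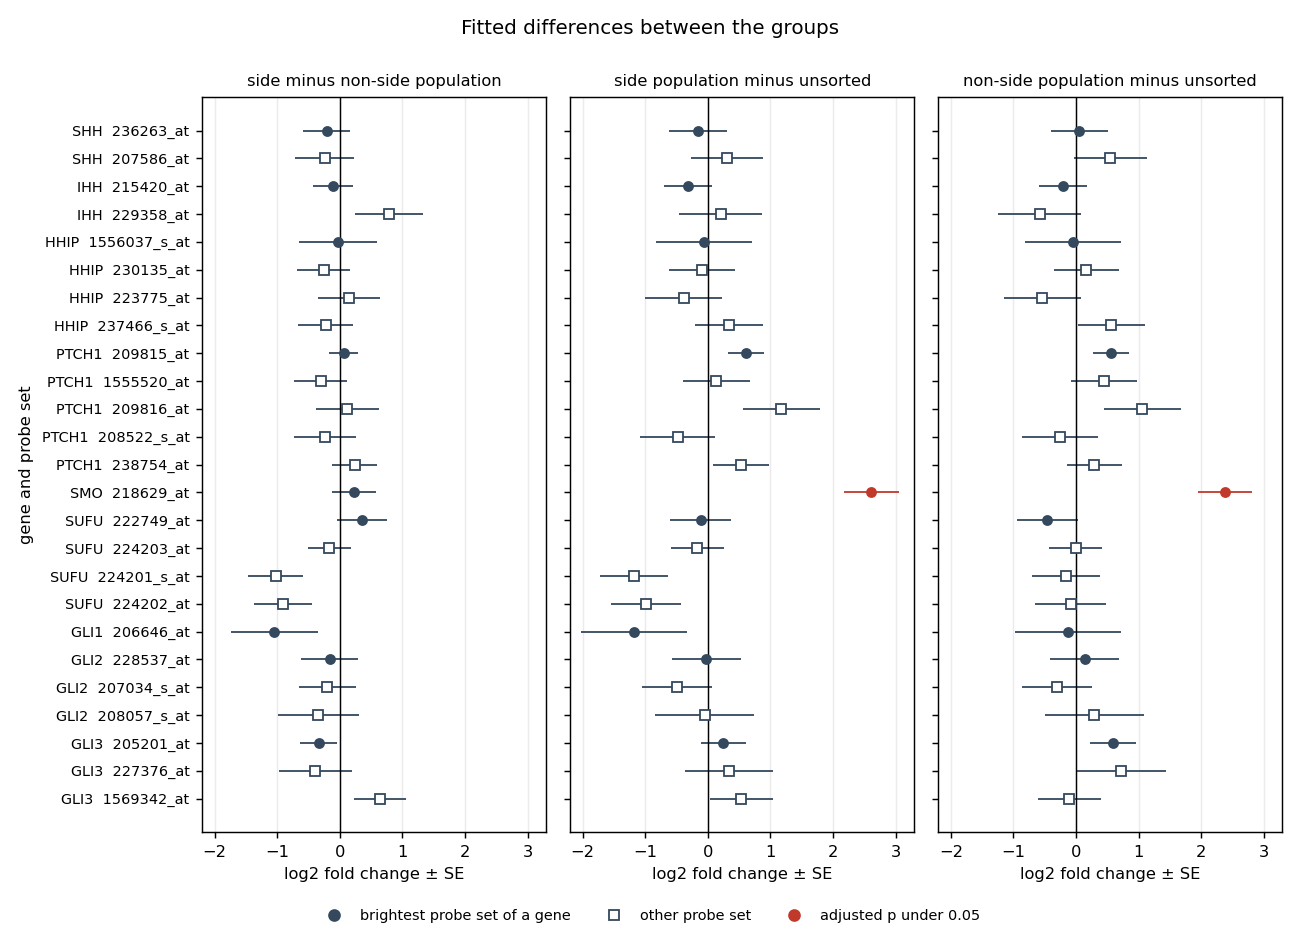
Log2 fold change with its SE from the fit (horizontal axis) for the 25 Hedgehog probe sets in the 3 comparisons of groups. Filled circles are the brightest probe set of each gene, open squares the other probe sets, and red marks a limma adjusted p under 0.05. SMO, at 2.61 and 2.38 against unsorted cells, is the only probe set in red. The 95% intervals, which are not drawn, span 0 in the first comparison for all but SUFU 224201_s_at.

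Side population replicates a and b, whose source label differs, were also compared apart from replicates c and d. Replicate a further differed in the ratio of 3′ to 5′ signal for actin, at 3.34 against 0.987 to 1.28 on the other arrays, and the part of this ratio in the values was not tested. Of the 25 Hedgehog probe sets, 0 were called by limma within letters a and b (0.187% of all; 0 of 25 and 14.1% at an unadjusted p under 0.05) and 0 within letters c and d (0% of all; 1 of 25 and 6.38% unadjusted). The difference between both pairs of letters was called for 0 of 25 (0% of all), with 3 of 25 at an unadjusted p under 0.05 against 12.6% of all. The 3 were GLI2 228537_at, GLI2 207034_s_at and SHH 207586_at. GLI2 228537_at had a log2 fold change of 0.61 ± 0.48 within a and b and -0.94 ± 0.48 within c and d (SE, n = 2 per group), a difference of 1.55 ± 0.67 (adjusted p = 0.372). GLI2 207034_s_at differed by 1.82 ± 0.72 (adjusted p = 0.334) and SHH 207586_at by 1.93 ± 0.80 (adjusted p = 0.349). With values raised to the array median the differences were 1.32 for GLI2 228537_at, 0.31 for GLI2 207034_s_at and 0.21 for SHH 207586_at. The medians alone give 0.21. SMO gave 0.24 ± 0.43 and 0.22 ± 0.43, a difference of 0.02 ± 0.61 (adjusted p = 0.996).

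**Figure D4:**
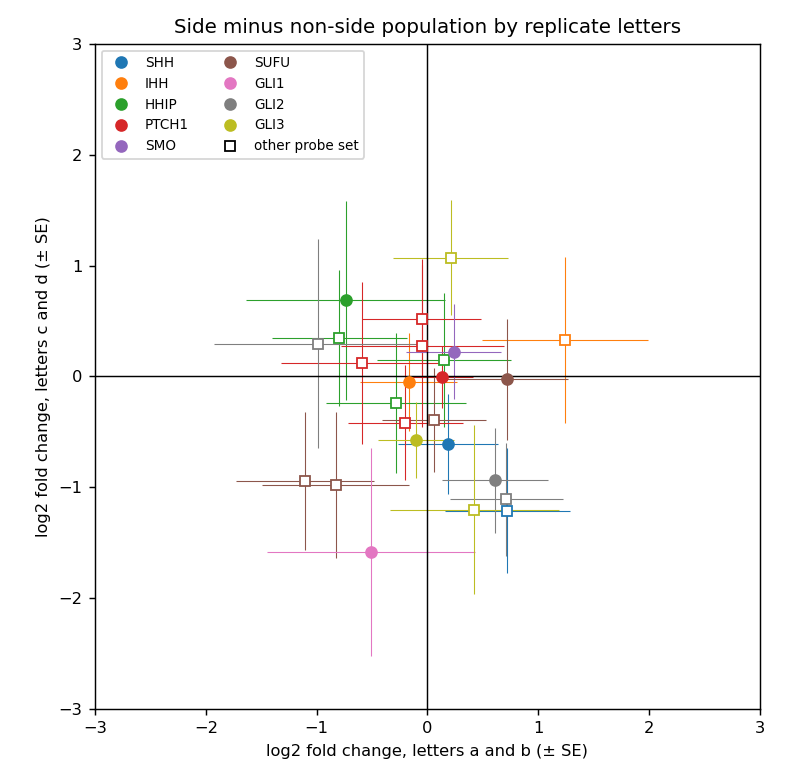
Log2 fold change of side over non-side population for the 25 Hedgehog probe sets, with SE from the fit (n = 2 arrays per group). The horizontal axis is within replicate letters a and b, the vertical axis within letters c and d. Filled circles are the brightest probe set of each gene and open squares the other probe sets. The filled GLI2 point lies at 0.61 and -0.94 and the SMO point at 0.24 and 0.22. The 95% intervals of the filled points, which are not drawn, all span 0.

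The wider pathway was read from 48 further genes, of which 44 had a probe set with 1 symbol. The brightest probe sets of 22 of the 44 were over the array median on all arrays. By role these were 15 of 18 genes of the cilium and GLI processing, 5 of 14 genes often reported as GLI targets, 2 of 8 genes of ligand handling and release, and 0 of 4 receptors and co-receptors. Between side and non-side population 0 of the 44 were called by limma, with a median log2 fold change of 0.06, and for side population over unsorted cells it was also 0 (0.834% of all genes). Between non-side population and unsorted cells 1 of the 44 was called (1.75% of all genes). This was MYCN, a transcription factor gene. MYCN read 297.7, 276.8, 250.8 and 280.2 in side population, 335, 250.9, 358.2 and 258.6 in the non-side population and 106.4 and 128.8 in unsorted cells, so that every sorted array was higher than both unsorted arrays. Its log2 fold change was 1.30 ± 0.29 for the non-side population (SE, n = 4 and 2; adjusted p = 0.0369) and 1.19 ± 0.29 for the side population (adjusted p = 0.0710). Of all 121 probe sets of the 44 genes, 2 were called higher and 1 lower between non-side population and unsorted cells. In that comparison 2.18% of all probe sets were called. Among probe sets that were not the brightest of their gene, 208866_at of CSNK1A1, a casein kinase that phosphorylates GLI proteins, was higher in the non-side population than in unsorted cells by 1.22 ± 0.28 (adjusted p = 0.0387). The probe set 208711_s_at of CCND1, the gene of cyclin D1, was lower there, with a fitted value of -1.30 ± 0.30 (log2; adjusted p = 0.0380).

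Some other pathway genes with the smallest p-values of their role did not pass. HHAT, which attaches palmitate to the ligands, had 1.06 ± 0.34 and 1.20 ± 0.34 against unsorted cells (log2 fold change ± SE; limma adjusted p = 0.162 and 0.0886 for side and non-side population). NKX2-2 had -1.97 ± 0.52 and -1.99 ± 0.52 (adjusted p = 0.0899 and 0.0647). It was dim, at 0.7 to 20.8 on sorted arrays and 33.6 and 44 on unsorted arrays. PROM1, the gene of the surface protein CD133, had 1.46 ± 0.51 between side and non-side population (n = 4 and 4; adjusted p = 0.926). It too was dim, at 30.1 to 54 in side population and 0.8 to 26.6 in non-side population. CCND2 had -1.32 ± 0.50 in the same comparison (adjusted p = 0.926). KIF3A, a motor subunit that builds cilia, had 0.76 ± 0.26 and 0.93 ± 0.26 against unsorted cells (adjusted p = 0.191 and 0.0873). LRP2, a large endocytic receptor that binds the ligand, had -1.03 ± 0.47 and -1.08 ± 0.47 (adjusted p = 0.334 and 0.270), and BOC, a co-receptor, 0.53 ± 0.39 and 0.69 ± 0.39 (adjusted p = 0.590 and 0.425). DHH, the third ligand gene, had 1.49 ± 0.66 for the non-side population (adjusted p = 0.279), and GPR161 -0.58 ± 0.26 (adjusted p = 0.282). DISP2 and EVC2 had -1.15 ± 0.56 and -1.38 ± 0.63 for the side population over unsorted cells (adjusted p = 0.367 and 0.339). Both were dim, DISP2 at 5.7 to 65.6 and EVC2 at 2.4 to 49.5 over all arrays. Over non-side population they had -1.07 ± 0.46 and -1.23 ± 0.52, PRKACA 0.61 ± 0.29, SCUBE1 -0.73 ± 0.53, BOC -0.16 ± 0.32 and GAS1 0.15 ± 0.35, with adjusted p from 0.926 to 0.995.

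The genes whose values ran most like those of a Hedgehog gene were sought among 22767 probe sets by Pearson correlation over the 10 arrays, as a description without a test. This was done for 8 of the 9 genes, HHIP being too dim. The arrays share their groups, and a high correlation can come from the 2 unsorted arrays alone. For SMO they were PLPP5 (0.98), KRTDAP (0.98) and ARMC9 (0.98). KRTDAP read 92.6 to 299.5 on sorted arrays and 11.5 and 22.8 on unsorted arrays, a gap like that of SMO. For PTCH1 they were MR1 (0.98), PRR18 (0.95) and FZD3 (0.95), the last a Frizzled receptor gene of the family related to SMO. The gene most like GLI1 was FUT8-AS1 (0.93), that for GLI2 BRD1 (0.96), for GLI3 MED31 (0.95), for SUFU RIPOR1 (0.93), for SHH ATF5 (0.93) and for IHH SAFB2 (0.86).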

How the data were processed

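Total RNA of 10 samples was hybridised to Affymetrix arrays, 1 per sample. The deposited intensity values, 1 per probe set, were made by the authors. GCOS 1.4 is named in the submitters' processing notes, and every array had a trimmed mean close to 500.1, so the values had been scaled before deposit. The algorithm and background correction are not given in the sources used here. Intensities ran from 0.1 to 74993.2, and no 2 arrays were identical. Symbols came from the platform annotation: 41097 of 54675 probe sets had 1 symbol, 1801 several and 11777 none, and 41043 matched RefSeq.

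The deposited intensities, plus 6.1 (their 10th percentile), were taken to log2 for each of the 54613 probe sets that were no controls, without a filter, and fitted with lmFit and contrasts.fit, then moderated with eBayes on a mean trend (limma 3.58.1, R 4.3.3) over all 10 arrays in 3 groups, or in 5 groups for the letters. P-values were adjusted by Benjamini-Hochberg over all probe sets, two-sided, and called under 0.05. Fold changes are on the log2(intensity + 6.1) scale and understate changes of dim probe sets. The number of arrays limits the precision. The fit was tested on simulated data in which 200 probe sets were changed. In the data, 571 and 1191 were called for side and non-side population against unsorted cells. The Benjamini-Hochberg cut depends on how many probe sets change, so the simulated shares do not measure the power in those comparisons. At a log2 change of 1 the fit called 0% of the 200 changed probe sets in each comparison of groups. At 2 it called 51% for side against non-side population and 21% for either against unsorted cells. At 4 the shares were 92.5% for side against non-side population, and 87% and 86% against unsorted cells. The lack of a call thus does not show that a gene was unchanged. Groups came from the labels. Letters were not taken as pairs in the main fit, although the labels give side and non-side arrays of a letter 1 replicate group name (SPa to SPd). The labels do not say what such a group shares. A fit with the letters as blocks is given below. Alternatives were other constants, filters, normalization, 1 probe set per gene, array subsets and blocks.

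All 9 genes were named whatever their values, other pathway genes as the 2 of smallest p per comparison and role, or where called. Genes, lists and tests were chosen with earlier results of these data known.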

Additional observations from a re-analysis of the deposited data

How the results depend on the processing

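SMO kept its direction against unsorted cells in all 21 alternatives, from 1.28 to 2.94 for the side population (called in 16) and from 1.05 to 2.71 for the non-side population (called in 18). The highest values, 2.94 and 2.71, came from the replicate block described below. With a constant of 50, SMO lost both calls (log2 fold change 1.54, limma adjusted p = 0.0529, and 1.37, adjusted p = 0.0510), leaving 0 Hedgehog probe sets called in either comparison. With only arrays labelled AGS, 0 were called for the side population. Leaving out single arrays gave 0 to 1 in each. No Hedgehog probe set passed a filter at the 75th percentile.

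With values raised to the array median, 0 Hedgehog probe sets were called for the side population and 15 for the non-side population against unsorted cells. Of these, 6 had turned sign, to 0.32 for HHIP 1556037_s_at and 223775_at, GLI3 1569342_at, PTCH1 208522_s_at and SUFU 224202_at and to 0.26 for SUFU 224201_s_at, and 8 others were newly called. The array medians themselves differ by 0.32 in this comparison, which is the value of any probe set under the median on every array. Over all probe sets the setting called 7 for side against non-side population, 855 for side population and 30265 for non-side population against unsorted cells, 1812 within letters a and b, 561 within c and d and 613 for their difference. Over all alternatives, signs of Hedgehog values changed 206 times.

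Over all probe sets, 571 calls were made for side population against unsorted cells, and 256 with a constant of 50, 904 with a filter at the median, 332 at the 75th percentile, 164 with 1 probe set per gene, 246 without a trend, 38 with AGS-labelled arrays, 1912 with letters as a batch and 4 to 785 without single arrays. Between non-side population and unsorted cells, 1191 were called, and 747 with a constant of 50, 488 at the 75th percentile, 308 with 1 probe set per gene, 760 without a trend, 742 with only the compared groups, 2740 with letters as a batch and 34 to 1483 without single arrays. Within letters a and b, 102 were called, and 11 with a constant of 1, 12 with 50, 818 and 1473 with the filters, 190 with quantile normalization, 306 with 1 probe set per gene, 0 without a trend and 0 to 383 without single arrays. The difference between pairs of letters gave 1 with quantile normalization and 0 to 23 without single arrays. Side against non-side population, and letters c and d, gave 0 to 1 without single arrays. Among single-array omissions, the lowest counts against unsorted cells came without unsorted replicate a, and the highest within letters a and b without side population replicate b.

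With a replicate block on the letters, 0 probe sets were called between side and non-side population, 1526 between side population and unsorted cells and 2344 between non-side population and unsorted cells. SMO was then 2.94 (adjusted p = 0.00614) and 2.71 (adjusted p = 0.00683). These values rest on placing unsorted a and b in the blocks of sorted a and b. The labels do not give that pairing. They name the unsorted replicate groups UCPa and UCPb and the sorted ones SPa to SPd. With letters a and b against c and d as a batch, SMO had an adjusted p of 0.00332 and 0.00350. The deviations of same-letter side and non-side population arrays from their group means correlated at 0.05, 0.21, -0.00 and 0.10 for letters a to d, and not every array correlated best with its own letter. Arrays with a or b correlated with those with c or d at -0.21 to -0.04 across these groups. Values were 0.05 to 0.21 among a and b and -0.00 to 0.20 among c and d. Deviations from a group mean cancel out within the group, so positive values in one place force negative ones in another. The negative values are therefore no separate sign of a division between the pairs of letters.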
